A study of Mus musculus with 28 samples.

Results

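Ranbp3l encodes RanBP3L, a protein with a Ran-binding domain that is related to RanBP3, and it was chosen by its measured values on these arrays, which moved with culture time and glucose in mouse fibroblasts. Its levels and differences are therefore a description and carry no test. The gene was found by its symbol on the array and is 1 of 18193 genes, measured by 2 of 45101 probe sets. The probe set 1443921_at, the one with the larger spread over arrays, is called the lead probe set, and 1455707_at the second. In the mouse build GRCm38.p6, Ranbp3l lies on the plus strand of chromosome 15 at chr15:8967949-9067335.

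The study compared the NIH3T3 line of mouse embryonic fibroblasts with NIH3T3 K-ras, a derivative named for K-ras, an oncogene of the Ras family, while both grew in high or low glucose. Cells grew in DMEM with 10% newborn calf serum and 4 mM glutamine, and 18 h after seeding the medium was changed to one with 25 or 1 mM glucose. RNA was taken at 0 h (25 mM only) and at 24, 48 and 72 h, which gave 14 groups of 2 cultures, called biological replicates in the labels, and 28 arrays. NIH3T3 K-ras is 1 line, and the labels do not name its K-ras allele, the promoter that drives it or whether it is a clone. Values are log2 ratios in which the median of a probe set across the 28 arrays is 0, so a step of 1 is a doubling, and levels cannot be set between genes. In a whole culture, fewer cells with a transcript and less transcript per cell cannot be told apart.

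The small GTPase Ran drives transport through nuclear pores: importins release their cargo, and exportins such as Xpo1 (CRM1) hold theirs, when bound to Ran carrying GTP. RanBP3 is a cofactor of Xpo1. RanBP3L is known as a binding partner of the Smads that carry bone morphogenetic protein (BMP) signals, Smad1, Smad5 and Smad9, whose export from the nucleus it promotes, and it has been studied in mesenchymal cells that turn into bone.

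The RefSeq promoter is shown because the results turn on the level of this 1 transcript. The stretch chr15:8967699-8967948 (GRCm38.p6, plus strand) holds the 250 bases before the annotated start, and capitals mark the homeodomain core TAAT, a motif added after Hoxa2 had been seen among the genes of like profile.
Ranbp3l promoter: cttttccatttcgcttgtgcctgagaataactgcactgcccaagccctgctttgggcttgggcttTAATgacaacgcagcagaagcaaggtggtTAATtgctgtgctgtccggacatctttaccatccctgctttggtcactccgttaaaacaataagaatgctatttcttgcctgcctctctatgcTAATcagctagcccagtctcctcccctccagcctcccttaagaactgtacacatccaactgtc
TAAT was found 3 times, at 185, 156 and 63 bases before the start, all on the forward strand. It is a frequent motif: 54.9% of 32851 RefSeq promoters of the same length held it on either strand, and 17.3% held it at least 3 times. The window held no GTAAACA (a FOXO site, in 3.17% of promoters), CACGTG (an E-box, 6.02%), TGACTCA (an AP-1 site, 4.46%), GGCGCC (a BMP response core, 9.59%), TATAAA (12.4%) or CCAAT (33.8%) on either strand. These motifs do not overlap TAAT. Its GC content was 48.8%, against a median of 52.4% over promoters, with 4 CpG against a median of 6.

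Some arrays stood apart from their labels. Il33 and Krt14 split the 28 arrays into profiles without overlap: in 11 arrays of each line they had that line's profile, and in 6 they had the profile of the other. At 1 mM these 6 were both NIH3T3 arrays of 24 h, replicate 1 of NIH3T3 at 48 h, and replicate 1 of K-ras at 48 h and at 72 h; at 25 mM it was replicate 1 of K-ras at 0 h. Labels were kept. The main Ranbp3l differences between a pair of groups that rest on these arrays are also given without them, where arrays were left. The standard error of a difference between pairs, 0.34 for the Ranbp3l lead probe set over all arrays, was 0.20 without the 6, and the residual SD between replicates was 0.35 and 0.16. The added control transcript bioC ran from -2.34 to -0.83 on the NIH3T3 arrays at 25 mM and from -0.26 to 2.98 on the K-ras arrays at 25 mM. At 25 mM it thus separated the lines by label, and its part in a difference between lines cannot be told apart. At 0 h it stood at -1.33 and -1.07 against 0.41 and 0.83, where the 0.41 is the K-ras array of NIH3T3 profile. Fibroblast identity could not be checked by level, since levels are removed from the values. Of 9 fibroblast markers, Pdgfra was higher in NIH3T3 at 72 h than at 0 h, by 3.73 ± 0.80 (limma standard error, SE; adjusted p = 0.0138; 6 of 10 alternatives), and the other 8 did not pass. Over all genes 5.52% passed in that comparison, and 3693 of 18193 had an unadjusted p under 0.05. Of the fibroblast markers, 3 had an unadjusted p under 0.05 and 7 differences were above 0, with a median of 1.09 against -0.07 over all genes. None passed of the markers measured for leukocytes (6), epithelium (7), endothelium (6) and fat (4), where 0, 1, 1 and 0 had an unadjusted p under 0.05, and of 8 for skeletal muscle the actin Acta1 fell by 4.84 ± 0.62 (limma adjusted p = 0.00135, 10 of 10 alternatives). Their part in the values of Ranbp3l was not tested.

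In NIH3T3 cells at 25 mM glucose, Ranbp3l climbed at each sampled time. The lead probe set stood at -0.01 and -0.03 at 0 h, at 0.53 and 0.69 at 24 h, at 1.82 and 2.39 at 48 h, and at 4.51 and 4.42 at 72 h, given for replicates 1 and 2 as log2 ratios. No array of one time overlapped those of another. The 72 h mean was above the 0 h mean by 4.48 ± 0.34 on the log2 scale (22.4-fold, SE, n = 2 and 2). By size of increase Ranbp3l ranked 6 of 18193 genes on this probe set and 836 on the second. The steps grew with time, from 0.63 in the first 24 h to 1.49 in the next and 2.36 between 48 and 72 h, each ± 0.34. The last step was the 3rd largest of all genes, and it alone was 5.14-fold.

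**Figure D1:**
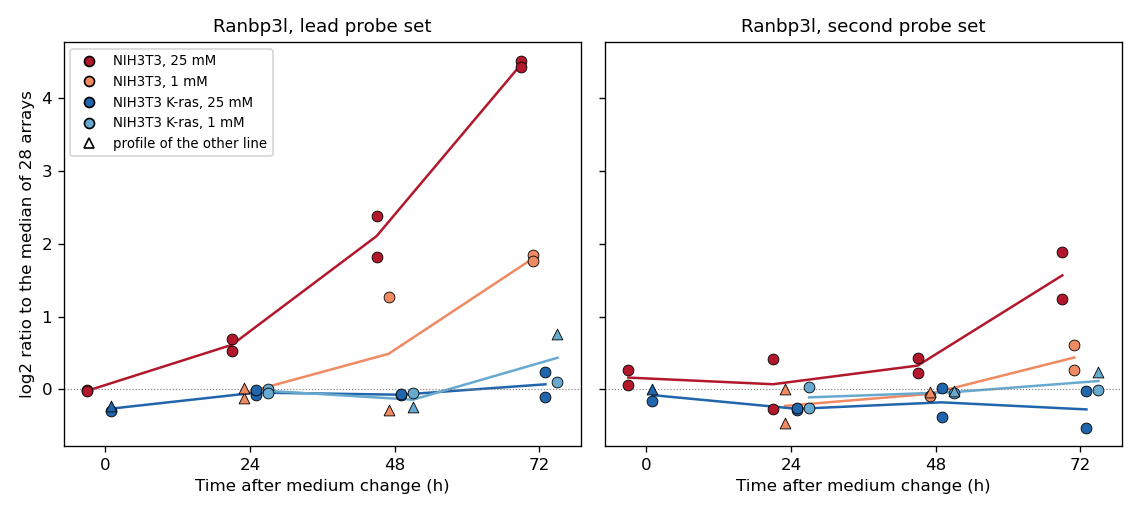
Log2 ratio of Ranbp3l to its median over the 28 arrays (vertical axis) against hours (horizontal axis), for the lead probe set and the second, by line and glucose. Points are arrays, triangles are arrays with the Il33 and Krt14 profile of the other line, and lines join means of 2. The lead probe set reaches 4.51 and 4.42 in NIH3T3 at 25 mM and 72 h, against 1.84 and 1.76 at 1 mM.

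At 1 mM glucose the NIH3T3 values were lower. The lead probe set stood at -0.12 and 0.01 at 24 h, at -0.29 and 1.26 at 48 h, and at 1.84 and 1.76 at 72 h. Both arrays at 24 h and the lower one at 48 h are among those with the K-ras profile, so only 3 NIH3T3 arrays at 1 mM carry their own line's profile: 1.26 at 48 h and the pair at 72 h. The pair at 72 h lay below both arrays at 25 mM and 72 h, by 2.66 ± 0.34 (6.34-fold), the 4th largest decrease among 18193 genes, and both groups have their own line's profile. They were still 1.82 ± 0.34 (3.53-fold) above the 0 h cultures, without overlap. At 48 h, the 1 NIH3T3-profile array at 1 mM lay below both 25 mM arrays, which stood at 1.82 and 2.39. The glucose differences by label were -0.67 at 24 h and -1.62 at 48 h, and both rest on arrays with the other profile. Without these the difference at 48 h was -0.84, and at 24 h no array was left. The bioC values of the 1 mM pair at 72 h were 0.28 and -1.10, and those of the 25 mM pair were -2.12 and -1.27. The part of bioC in the glucose difference was not tested.

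NIH3T3 K-ras cells showed no such climb. At 25 mM the lead probe set was -0.23 and -0.30 at 0 h, -0.08 and -0.01 at 24 h, -0.08 and -0.07 at 48 h, and -0.10 and 0.24 at 72 h. At 1 mM it was 0.01 and -0.05 at 24 h, -0.24 (NIH3T3 profile) and -0.04 at 48 h, and 0.76 and 0.10 at 72 h. The 0.76 is replicate 1 at 1 mM and 72 h, an array with the NIH3T3 profile, and the other 13 K-ras arrays lie between -0.30 and 0.24. The change from 0 to 72 h at 25 mM was 0.33 ± 0.34 over all arrays. It was 0.37 ± 0.24 without the 6 arrays, that is without replicate 1 at 0 h, which had the NIH3T3 profile. The glucose difference at 72 h was 0.36 ± 0.34, or 0.04 ± 0.24 without the 6 arrays, among them the one at 0.76.

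Between the lines, the distance opened with time. K-ras minus NIH3T3 at 25 mM was -0.24 at 0 h, -0.66 at 24 h, -2.18 at 48 h and -4.40 at 72 h, each ± 0.34, and the last is a 21.1-fold lower level in K-ras cells. At 0 h the K-ras arrays, at -0.23 and -0.30, lay below the NIH3T3 arrays, at -0.01 and -0.03, without overlap. The difference was less than the error of 0.34 over all arrays, an error that was 0.20 for pairs without the 6 arrays. At 72 h and 1 mM the difference was -1.37 ± 0.34, with K-ras arrays at 0.76 and 0.10 below the NIH3T3 arrays at 1.84 and 1.76, and -1.70 without the array at 0.76. At 48 h and 1 mM it was -0.63 by label and -1.31 between the 1 array of each line with its own profile. The 0 h value was -0.28 when the K-ras array of NIH3T3 profile was left out, which set 1 K-ras array against 2 NIH3T3 arrays. The time change at 25 mM differed between the lines by -4.15 ± 0.47, and the glucose difference at 72 h by 3.03 ± 0.47. Each rests on a K-ras array of NIH3T3 profile, at 0 h and at 1 mM and 72 h, and was not fitted without it. The K-ras time change and glucose difference they draw on were 0.33 and 0.36 with those arrays. Without them they were 0.37 and 0.04. Sorted by Il33 and Krt14 instead of label, the 14 arrays with the K-ras profile lay between -0.30 and 0.24 (median -0.06), and the 14 with the NIH3T3 profile between -0.24 and 4.51 (median 1.01).

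**Figure D2:**
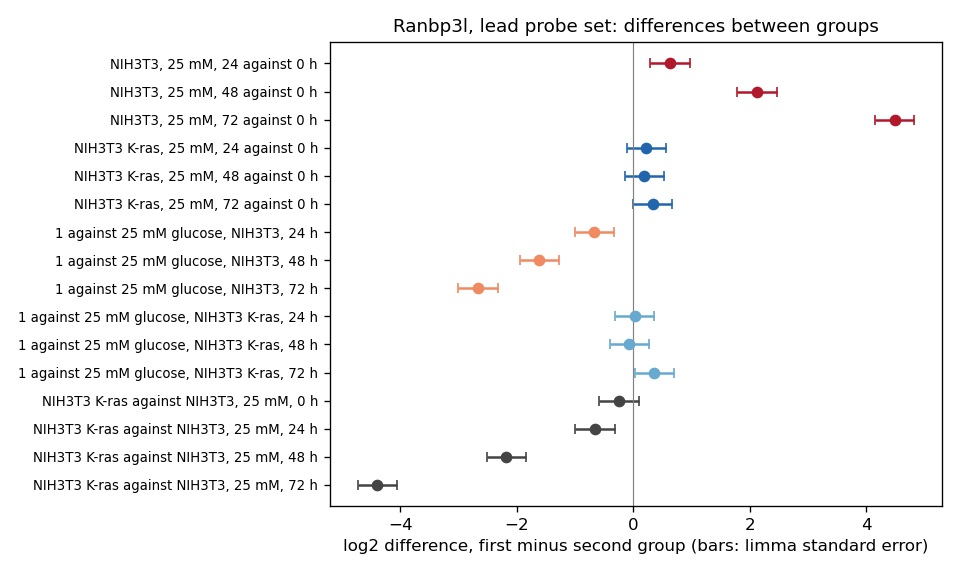
Log2 differences of the Ranbp3l lead probe set (horizontal axis) for the comparisons of time, glucose and line (vertical axis). Points are differences between means of 2 arrays and bars are limma standard errors. The time change in NIH3T3 at 25 mM (4.48) and the line difference at 25 mM and 72 h (-4.40) lie farthest from 0.

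Placed in order by label, the 14 groups fell into 3 separated steps on the lead probe set. NIH3T3 at 25 mM and 72 h stood alone at the top. NIH3T3 at 25 mM and 48 h and NIH3T3 at 1 mM and 72 h came next and overlapped. The next group, NIH3T3 at 25 mM and 24 h, lay 1.19 lower on average without overlap, and from there each group overlapped the one after it. With the 22 arrays of their own line's profile, which cover 13 groups, the order had more steps. The 1 array of NIH3T3 at 1 mM and 48 h (1.26) lay below the pair at 1 mM and 72 h, NIH3T3 at 25 mM and 24 h lay below it, and all K-ras and 0 h arrays, at 0.24 or less, lay below that group without overlap. The residual SD of Ranbp3l between replicates was 0.35, against a median of 0.30 over genes (60.4% of genes were lower). Its SD over all 28 arrays was 1.31, and 98.4% of genes were lower.

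The second probe set gave the same highest group with a smaller range. In NIH3T3 at 25 mM it stood at 0.06 and 0.26 at 0 h, 0.42 and -0.27 at 24 h, 0.43 and 0.22 at 48 h, and 1.89 and 1.24 at 72 h. In NIH3T3 at 1 mM it ran from -0.46 to 0.60, with 0.27 and 0.60 at 72 h, and from -0.09 in the 3 arrays of their own profile. On K-ras arrays it ran from -0.53 to 0.23, and to 0.03 in the 11 of their own profile. Its 72 h increase at 25 mM was 1.40 ± 0.26 (2.65-fold) in NIH3T3 and its change in K-ras was -0.20 ± 0.26. At 72 h its glucose difference in NIH3T3 was -1.13 ± 0.26 and its line difference at 25 mM was -1.84 ± 0.26. The high ranks of the lead probe set among 18193 genes were not seen here. The second ranked 836 for the 72 h increase, against 6 on the lead. It ranked 91 for the step from 48 to 72 h, against 3, and 303 for the glucose decrease at 72 h, against 4. The climb seen on the lead probe set at 24 and 48 h was not seen here, where the changes from 0 h were -0.09 and 0.16, each ± 0.26. The probe sets correlated across the 28 arrays with Pearson r = 0.86 and Spearman rho = 0.55, and r was 0.59 over the 26 arrays left without NIH3T3 at 25 mM and 72 h. Within K-ras arrays r was 0.47 (n = 14), and 0.32 in the 11 with their own profile.

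Several genes had array profiles close to that of Ranbp3l. Over the 28 arrays, 58 of 18192 other genes had r above 0.8 with the lead probe set, 0 had r above 0.9, and 178 had r below -0.7, with a median of -0.03. The arrays share lines, times, cultures and platform, and the pair at 25 mM and 72 h in NIH3T3 weighs heavily. These correlations are therefore descriptions over arrays that are not independent.

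The 12 highest began with Sertad3 (r = 0.89), a transcriptional co-regulator, Thra (0.87), a thyroid hormone receptor, Apbb1 (0.86), an adaptor that binds the amyloid precursor protein, and C1qtnf1 (0.86), a secreted protein of the C1q and TNF-related family. They went on with Ehbp1 (0.85), which acts in endocytic traffic, the homeobox factor Hoxa2 (0.85), the secreted protein Kazald1 (0.85), Kctd14 (0.84), the signalling adaptor Stap2 (0.84), Cped1 (0.84), the peptidase Pgpep1 (0.84) and the lysosomal mannosidase Man2b1 (0.84). Their Spearman rho ran from 0.56 to 0.74. Without the 2 arrays farthest from the median of Ranbp3l, both NIH3T3 at 25 mM and 72 h, r ran from 0.70 to 0.82. Within NIH3T3 it ran from 0.82 to 0.92, and within the 11 K-ras arrays with their own profile from -0.32 to 0.78. All 12 had higher means in NIH3T3 at 25 mM and 72 h than at 0 h, by 1.29 to 3.0, a smaller range than the 4.48 of Ranbp3l. Their K-ras changes over the same time ran from -0.83 to 0.66, and their glucose differences in NIH3T3 at 72 h from -1.82 to -0.50. Of the 12, 9 have over 1 probe set and 4 of these have one with r below 0.5. Promoters of 9 of the 12 were listed in RefSeq, and 6 of the 9 hold TAAT, near the 58.5% of all genes with a listed promoter.

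The 6 lowest mirrored Ranbp3l. They were Fosl1 (r = -0.95), which encodes the AP-1 subunit Fra-1, Noct (-0.92), which encodes nocturnin, Phlda1 (-0.90), the mitochondrial processing peptidase subunit Pmpca (-0.88), the RNA helicase Ddx51 (-0.88) and the mitochondrial import chaperone Timm8a1 (-0.87). Without the 2 farthest arrays r ran from -0.88 to -0.73. Fosl1 had the value farthest from 0 of all 18192 genes, and its other probe set gave -0.87. In NIH3T3 at 25 mM it stood at -0.29 and -0.14 at 0 h, 0.14 and -0.45 at 24 h, -2.41 and -1.84 at 48 h, and -4.79 and -4.50 at 72 h. The arrays where Ranbp3l was highest were those where Fosl1 was lowest. At 1 mM and 72 h Fosl1 was -1.53 and -1.71, between the values at 0 and 72 h, as for Ranbp3l. In K-ras the lowest Fosl1 array, -1.90, was the same replicate 1 at 1 mM and 72 h that held the highest Ranbp3l value, and r was -0.73 in the 14 K-ras arrays but -0.40 in the 11 with their own profile.

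**Figure D3:**
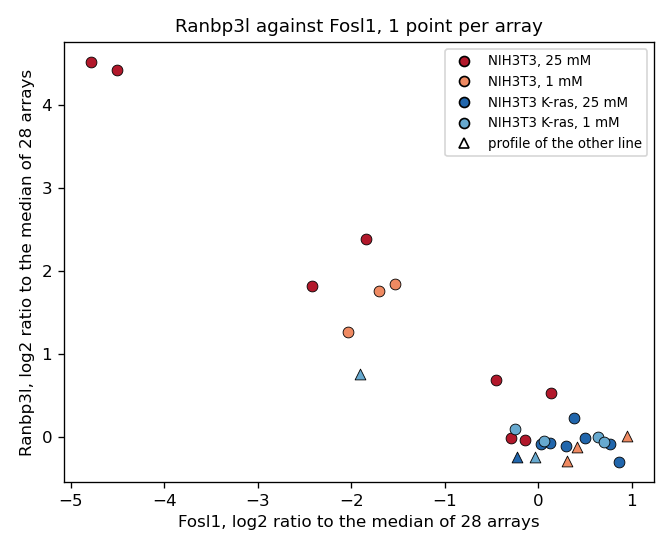
Log2 ratio of Fosl1 (horizontal axis) against that of Ranbp3l (vertical axis), each to its own median over the 28 arrays, by line and glucose, with triangles for arrays of the other line's profile. NIH3T3 arrays at 25 mM and 72 h sit at the upper left (Ranbp3l 4.51 and 4.42, Fosl1 -4.79 and -4.50) and most other arrays gather near 0.

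The likeness was seen between group means, and among replicates it depended on the 6 arrays. Over the 14 group means, r with Sertad3 was 0.93 and with Fosl1 -0.96. Deviations of single arrays from their group mean, over all 28 arrays, gave r from 0.13 to 0.82 for the 12 highest and from -0.75 to -0.40 for the 6 lowest. Over the 18 arrays of the 9 groups in which both arrays had their line's profile, r ran from -0.79 to 0.26 for the 12 highest and from 0.15 to 0.64 for the 6 lowest. The deviations of the arrays of a group are equal and opposite. The 28 arrays therefore hold 14 separate deviations and the 18 arrays hold 9. Within NIH3T3 alone the nearest profiles were Nod1 (r = 0.94), which encodes an intracellular sensor of bacterial peptidoglycan, Agbl3 (0.92) and Hoxa2 (0.92). In the 11 NIH3T3 arrays of their own profile these were 0.96, 0.91 and 0.89. The 6 probe sets of Agbl3 gave r from -0.41 to 0.60 over the 28 arrays. Within K-ras alone the nearest profiles were Ptgr2, Kidins220 and Amdhd1 (each 0.88), and without the 3 arrays of NIH3T3 profile these fell to 0.76, 0.62 and 0.52.

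**Figure D4:**
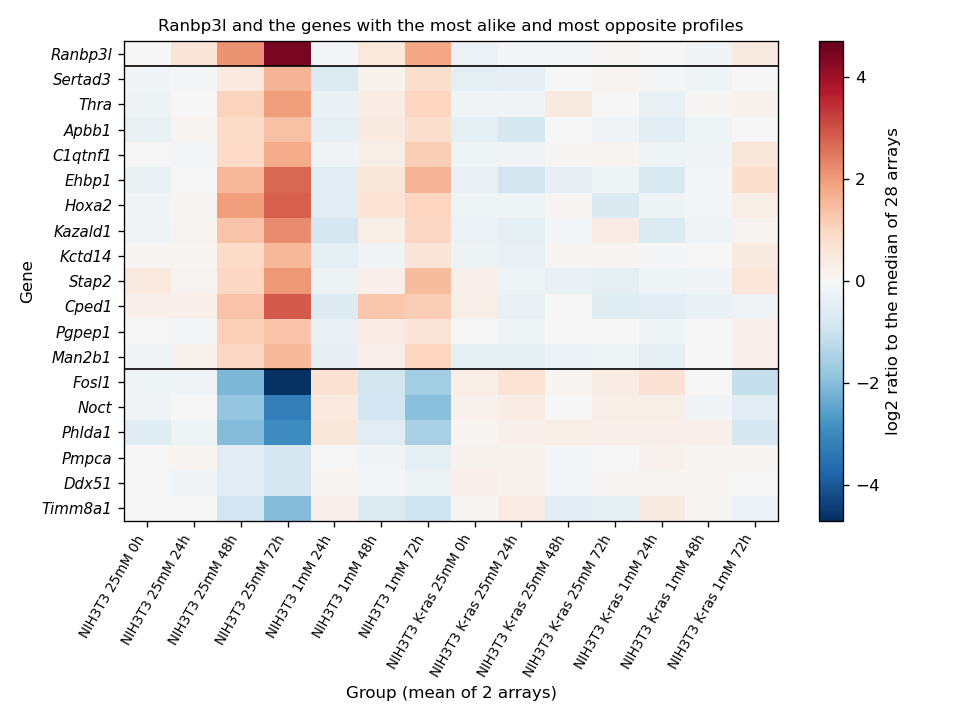
Mean log2 ratios (colour) of Ranbp3l, the 12 genes of highest r and the 6 of lowest r (rows) in the 14 groups (columns), each mean over 2 arrays. Ranbp3l is 4.47 in NIH3T3 at 25 mM and 72 h, the 12 genes also have their highest mean there, and the 6 have their lowest.

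Of genes known to answer to glucose, 2 were looked at, and neither was among those of closest profile. Txnip, which limits glucose uptake, had r = 0.58 with Ranbp3l (0.20 without the 2 farthest arrays, 0.62 within NIH3T3), and Arrdc4, a related arrestin, 0.48. Txnip too had its highest group mean, 3.51, in NIH3T3 at 25 mM and 72 h. In NIH3T3 at 72 h Txnip was at 3.51 and 3.50 at 25 mM against 1.31 and -1.22 at 1 mM. That difference of -3.46 ± 1.08 was the largest decrease of all genes but did not pass the test across all genes. The difference of Arrdc4 was -1.44 and did not pass.

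The genes of Ran-dependent transport, the machinery with which RanBP3L is linked, were lower on balance at 72 h in NIH3T3 and, by a smaller median, in K-ras. Of 32 listed genes, 31 were measured. From 0 to 72 h at 25 mM, 0 passed as higher and 3 as lower by limma with Benjamini-Hochberg adjustment over 18193 genes at 0.05: the exchange factor Rcc1 (-2.08 ± 0.49, adjusted p = 0.0214), the importin Kpnb1 (-2.41 ± 0.57, 0.0216) and the importin Ipo5 (-1.37 ± 0.34, 0.0283). Over all genes, 5.52% passed in that comparison, 3.68% higher and 1.84% lower. The list's median difference was -0.85, with 3 of 31 above 0 and 17 at an unadjusted p under 0.05. Over all genes the median was -0.07, and 3693 of 18193 had such a p. These 3 calls held in 6 of 10 alternatives, and without any 1 of the 4 compared arrays 0 of the 31 passed and between 20 and 180 genes in all did, down from 1004. Other probe sets of Kpnb1 gave -1.43, -1.36 and -1.33, and of Ipo5 -0.78 and -0.18. The relatives closest to RanBP3L did not pass: Ranbp3 was at -0.57 and Xpo1 at -0.77, while Ranbp3l itself was at 4.48. Ranbp3 had r = 0.08 with Ranbp3l over the 28 arrays and Xpo1 -0.45.

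The BMP and Smad genes, which carry the signal that RanBP3L is known to limit, did not pass in that comparison. Of 35 listed genes 33 were measured, 0 passed in NIH3T3 from 0 to 72 h (8 of 33 had an unadjusted p under 0.05, against 3693 of 18193 genes), and their median was -0.07, the same as for all genes. Among the Smads that RanBP3L binds, Smad1 was at -0.84, Smad5 at 0.30 and Smad9 at -0.04, and the BMP target Id1 was at -0.38. Of 16 listed osteoblast genes 12 were measured, with 0 passing, 0 at an unadjusted p under 0.05, and a median of -0.18. In K-ras over the same time 0 of 18193 genes passed (0%, with 2791 at an unadjusted p under 0.05). The list medians there were -0.58 for Ran transport, -0.16 for BMP and Smad and 0.01 for osteoblast genes, against 0.04 over all genes. Of the 31 Ran transport genes 3 were above 0, as in NIH3T3. Without K-ras 25 mM 72 h replicate 2, 2552 genes passed, among them 5 Ran transport, 9 BMP and Smad and 2 osteoblast genes. That fit leaves replicate 1 alone in its group, assumed to vary like the other groups. Replicate 1 has the largest SD over genes of all arrays (0.65) and the highest bioC (2.98), and their part in the count was not tested.

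Between the lines at 25 mM and 72 h, 0.726% of genes passed (0.308% higher and 0.418% lower), and of the lists Id2 alone did. The medians were 0.15 for Ran transport, -0.22 for BMP and Smad and 0.10 for osteoblast genes, against 0.03 over all genes, with 3, 7 and 3 members at an unadjusted p under 0.05, as had 3929 of 18193 genes. Id2, a BMP-induced inhibitor of helix-loop-helix factors, was at -3.38 and -0.70 in K-ras against 1.10 and 1.03 in NIH3T3, without overlap, a difference of -3.11 ± 0.70 (limma adjusted p = 0.0489). Its other probe sets gave -1.63 and -0.37, and the call held in 3 of 10 alternatives. The -3.38 comes from K-ras replicate 1, the array with the largest SD over genes and the highest bioC, and their part was not tested. Without that array the Id2 difference was -1.77, and without replicate 2 it was -4.45. Without K-ras 72 h replicate 2 its adjusted p was 0.000381, with 3014 genes passing, 9 of them BMP and Smad and 2 osteoblast genes, and without any of the other 3 arrays it was between 0.28 and 0.32, with 2 genes passing. For 1 against 25 mM glucose at 72 h, 0.011% of genes passed in NIH3T3, a count of 2. The count is taken over all genes and is no test of Ranbp3l, which was chosen by its values. Without NIH3T3 25 mM 72 h replicate 1 or replicate 2 the count was 0, and it was 1 without 1 mM 72 h replicate 2. No list member passed there (3 Ran transport, 2 BMP and Smad and 0 osteoblast genes had an unadjusted p under 0.05, with medians of 0.17, 0.18 and 0.03 against 0.05 over all genes, where 1224 had such a p), nor in K-ras, where 0.181% of genes did (0.033% higher and 0.148% lower) and 4, 9 and 0 list members had an unadjusted p under 0.05, as had 2791 genes in all. Without K-ras 25 mM 72 h replicate 2 that K-ras comparison had 2517 genes passing, with 2 Ran transport, 8 BMP and Smad and 1 osteoblast gene, and without replicate 1 it had 0. Without K-ras 1 mM 72 h replicate 1 it had 138 genes with 1 Ran transport gene, and without replicate 2 it had 86. Tests of the difference between lines in the time change and in the glucose difference passed for 0 of the 76 list genes each (7 and 7 at an unadjusted p under 0.05). Over all 18193 genes these tests passed for 1 and 0, with 2004 and 2220 at an unadjusted p under 0.05.

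**Figure D5:**
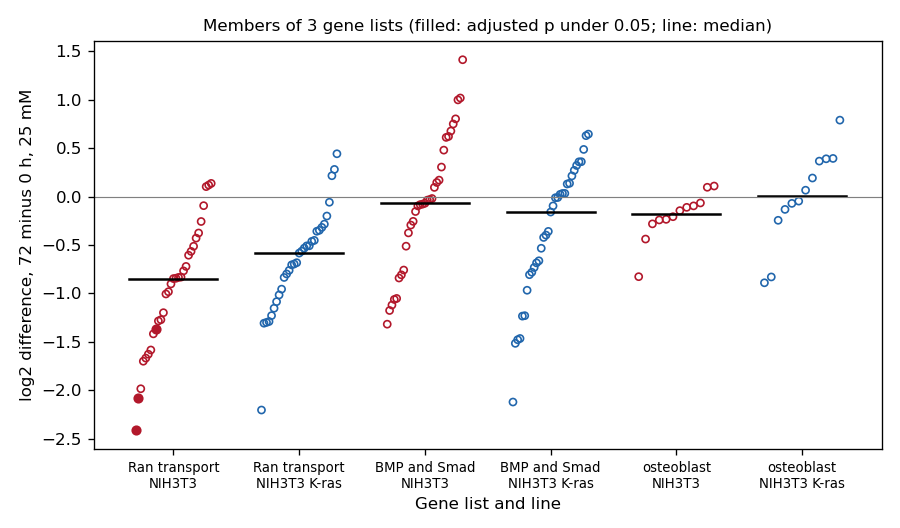
Log2 difference from 0 to 72 h at 25 mM glucose (vertical axis) for the measured genes of the Ran transport (31), BMP and Smad (33) and osteoblast (12) lists, in each line (horizontal axis); points are genes and marked points passed the test. The median of the Ran transport genes is -0.85 in NIH3T3 and -0.58 in K-ras, and the other medians lie between -0.18 and 0.01.

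The genes beside Ranbp3l on chromosome 15 did not share its profile. Nadk2, a mitochondrial NAD kinase gene that starts 3924 bases beyond the end of Ranbp3l at chr15:9071260-9110496, had r = 0.14 with it over the 28 arrays. From 0 to 72 h at 25 mM in NIH3T3, Nadk2 rose by 1.51 ± 0.35 (limma adjusted p = 0.0191), with arrays at 0.53 and 0.70 against -0.72 and -1.05, and in K-ras its change was 0.57 (adjusted p = 0.437). At 1 mM and 72 h it stood at -0.27 and -1.03, a glucose difference of -1.27 ± 0.35 that did not pass (adjusted p = 0.402), and both comparisons share the 25 mM 72 h arrays. On the other side, 257141 bases away, the glutamate transporter gene Slc1a3 rose by 0.96 ± 0.24 in NIH3T3 (adjusted p = 0.0275) and had r = 0.12, while its change in K-ras was 1.12 ± 0.24 and did not pass (adjusted p = 0.176). Each call held in 5 of 10 alternatives. Without single arrays of the 4 the adjusted p ran from 0.0675 to 0.165 for Nadk2 and from 0.0465 to 0.286 for Slc1a3, and as a mean of all its probe sets Slc1a3 was at 0.29. Skp2, a ubiquitin ligase subunit of the cell cycle, was at -1.05 ± 0.68 (adjusted p = 0.421) with r = -0.58, and Cplane1 and Nipbl were at 0.09 and -0.18 and did not pass.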

How the data were processed

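Total RNA was extracted with Trizol and RNeasy columns and labelled by a one-cycle kit for Affymetrix mouse arrays, per the labels' protocols. RMA is named in the submitters' processing notes, with no version. The authors deposited log2 values for 45101 probe sets on 28 arrays. Tested on the file, 2 to the value had a median of 1 over arrays, within 0.001, in all 45101 probe sets, so each is a log2 ratio to that median, from -6.64 to 6.37. Levels and signal over background are therefore unknown, and a filter on dim probes could not be run.

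Symbols came from the platform table: 34945 probe sets had 1 symbol, 932 several, 9160 none and 64 were controls, and 34741 matched RefSeq. Of 18193 genes, 9010 had over 1 probe set, and the one of largest SD over arrays stood for the gene, a rule that replaced the brightest. limma 3.58.1 (R 4.3.3, lmFit and eBayes) was fitted with 1 coefficient per group on all 28 arrays, with 14 residual degrees of freedom and Benjamini-Hochberg adjustment over genes at 0.05. On simulated data for the NIH3T3 time comparison, 77% of genes changed by 2 on the log2 scale and 33% of those changed by 1 were recovered, with 6 false among 116 calls. The simulated noise was independent between arrays, with 1 SD per gene in all groups. In the data the spread differed between groups, as for Ranbp3l, with an SD of 1.10 in NIH3T3 at 1 mM and 48 h and 0.07 at 25 mM and 72 h. The simulated rates may therefore not hold for the calls on the data. P-values measure the spread between arrays of the same group, n = 2, pooled over 14 groups. Some groups hold 1 array of each line's profile, so this spread is not only that between like cultures. The number of arrays limits precision.

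Ranbp3l and the lists of Ran transport, BMP and Smad, osteoblast and marker genes were chosen with earlier results of these data known. Named genes were the 12 of highest and 6 of lowest Pearson r, the top 3 within each line, the 3 nearest on each side of the chromosome, list members that passed (up to 6 a list and comparison), Ranbp3, Xpo1, Smad1, Smad5, Smad9, Id1, Txnip, Arrdc4, Il33 and Krt14. Lmbrd2, a chromosome neighbour, had no probe set of 1 symbol. Fold is 2 to the log2 difference. Alternatives were quantile normalisation, leaving out arrays, a replicate block, the mean of probe sets, an SD filter, fits of the compared arrays alone, and other measures of likeness.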

Additional observations from a re-analysis of the deposited data

How the results depend on the processing

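Of 270 alternative values, 186 stayed within the limits, 84 moved and 0 were labelled reversed, and of 51 alternatives to the Ranbp3l differences 6 moved. Those 6 were quantile normalisation, with 3.84 for the time change in NIH3T3, -3.68 for the line difference and -2.01 for the glucose difference in NIH3T3, and the mean of both probe sets, with 2.94, -3.12 and -1.90. Only a Ranbp3l difference larger in size than its residual SD of 0.35 could be labelled reversed. No other value, nor the K-ras time change, could get that label. The replicate block, the SD filter and the fits of the compared arrays alone cannot change a difference between group means. Not among the 51 is the second probe set alone, whose K-ras time change was -0.20 against 0.33 on the lead. The second probe set alone spanned 1.84 between its highest and lowest group, against 4.73 on the lead. Leaving out 1 array gave Ranbp3l 4.44 to 4.53 (time, NIH3T3), 0.17 to 0.50 (time, K-ras), -4.56 to -4.23 (line), -2.71 to -2.62 (glucose, NIH3T3) and 0.04 to 0.69 (glucose, K-ras). Counts of genes passing were less stable, and the cause was not tested.

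In the NIH3T3 time comparison 659 genes passed with quantile normalisation, 1938 without the 6 arrays and 4909 with the compared arrays alone, and 20 to 180 without 1 array. Ran transport genes numbered 8 without the 6 arrays, 7 with means of probe sets, 20 with the compared arrays alone and 0 to 0 without 1 array, and BMP and Smad genes 3, 2 and 13 in the first 3 of these and 1 with the SD filter. In the K-ras time comparison 6 genes passed without the 6 arrays and 0 to 2552 without 1 array, with 0 to 5 Ran transport, 0 to 9 BMP and Smad and 0 to 2 osteoblast genes. In the line comparison 9 genes passed with quantile normalisation, 1618 without the 6 arrays, 39 with the replicate block, 252 with means of probe sets, 316 with the SD filter, 414 with the compared arrays alone and 2 to 3014 without 1 array. There, BMP and Smad genes numbered 0 with quantile normalisation, 6 without the 6 arrays, 0 with the replicate block, 0 with means, 2 with the SD filter and 0 to 9 without 1 array; Ran transport and osteoblast genes numbered 1 each without the 6 arrays, and osteoblast genes 0 to 2 without 1 array. For glucose in NIH3T3, 0 genes passed with quantile normalisation, 8 without the 6 arrays, 1 with the replicate block, 1 with the SD filter, 0 with the compared arrays alone and 0 to 2 without 1 array. For glucose in K-ras these were 0, 680, 5, 5 and 0, with 6 for means of probe sets and 0 to 2517 without 1 array, and Ran transport genes numbered 2 without the 6 arrays, 0 to 2 without 1 array, BMP and Smad genes 0 to 8 and osteoblast genes 0 to 1.

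The 12 genes of highest r shared 2 with those by Spearman rho, 1 without the 2 farthest arrays, 5 without the 6 arrays, 2 with means of probe sets, 3 over group means, 2 with the second probe set and 8 with quantile normalisation. The 6 lowest shared 1, 3 and 3 by Spearman rho, without the 6 arrays and with the second probe set.

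Arrays of the same replicate number did not deviate together in the 5 comparisons: the correlations were 0.09 and -0.10 for time in NIH3T3 and K-ras, 0.09 for line, and -0.06 and -0.25 for glucose. Over all pairs of groups they ran from -0.68 to 0.69, with a median of -0.04. The numbers were not taken as pairs. With the replicate block, 933 genes passed for time in NIH3T3 and 0 in K-ras, 39 for line, and 1 and 5 for glucose. The Ranbp3l differences kept their values, which was fixed in advance, since each group holds 1 array of each number. With crossed numbers, 37 genes passed for glucose in K-ras, an alternative chosen after seeing the data. A planned filter on dim probes was not run, and signal over background, which would limit low ratios, is unknown.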
